A study of Mus musculus with 12 samples.

Results

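The 10 genes described here mark the endothelium of the liver, and they were taken as the rows named *Stab1*, *Stab2*, *Clec4g*, *Lyve1*, *Oit3*, *Fcgr2b*, *Kdr*, *Pecam1*, *Vwf* and *Cd34* in each of the deposited tables of 41743 genes. Each name matched 1 row in each table. Of the 10 genes, 6 are sinusoidal identity genes (*Stab1*, *Stab2*, *Clec4g*, *Lyve1*, *Oit3* and *Fcgr2b*), 2 are expressed by endothelium more generally (*Kdr* and *Pecam1*), and 2 mark capillarization and large vessels (*Vwf* and *Cd34*). Liver sinusoidal endothelial cells line the sinusoids without a continuous basement membrane, are perforated by fenestrae, and take up waste macromolecules from blood through scavenger receptors. Signals between hepatocytes and these cells, among them VEGF from hepatocytes, maintain this state. In chronic liver injury the cells can lose fenestrae and scavenger receptors and gain features of continuous capillaries, a change known as capillarization.

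RNA of the whole liver was sequenced in 12 livers of female mice, in 4 groups of 3. YAP1 KO livers, in which Cre driven by the *Foxa3* promoter deleted both *Yap1* alleles in the foregut endoderm, were compared with WT (C57BL/6) livers. YKTH livers (YAP1 KO TAZ Heterozygote), which also lacked 1 allele of *Wwtr1*, the gene for TAZ, were compared with WT (mixed C57BL/6-FVB) livers. Both models lack functional bile ducts and are cholestatic, and both carry a deletion directed at cells that descend from foregut endoderm. In the study the YAP1 KO mice also carried a floxed-stop EYFP reporter in the ROSA locus, the WT mice were littermates whose alleles are not given in full, and adults were studied at an age that the labels of these livers do not state. RNA from whole liver cannot tell fewer endothelial cells from less RNA per cell.

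*Yap1* ran from 1.67 to 3.72 TPM (a transcript level scaled for gene length and for the library total) in the YAP1 KO livers and from 28.2 to 30.5 TPM in their WT livers, and from 8.63 to 11.5 TPM in the YKTH livers and from 31.0 to 33.2 TPM in theirs. *Wwtr1* ran from 6.26 to 6.83 TPM in WT (C57BL/6), 13.3 to 16.7 TPM in YAP1 KO, 7.73 to 8.38 TPM in WT (mixed C57BL/6-FVB) and 11.5 to 14.1 TPM in YKTH livers. Between 14442 and 15047 genes were above 0 in a library. Each library sums to 1000000 TPM, so the depth of each single library cannot be read from these values. Changes are given as log2 fold changes of scaled TPM plus 1 (model minus WT), with limma and Benjamini-Hochberg adjustment over all tested genes. The pseudocount makes these values understate the changes of low genes such as *Vwf*, *Cd34* and *Lyve1*. The scaling matters for direction, since without it the median log2 fold change of all tested genes was 0.28 in place of -0.04 in YAP1 KO livers and 0.24 in place of -0.04 in YKTH livers. Deposited TPM are printed as values of a liver, and changes are relative to the bulk of the genes.

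One YAP1 KO library stood apart in the level of endothelial genes. Replicate LM74 held the highest TPM of its group for 9 of the 10 genes and for 21 of 21 further pan-endothelial genes, and after scaling for 7 of 10 and 18 of 21. In the YKTH group, replicate LM225 held the lowest TPM for 18 of the 21 pan-endothelial genes, and replicate LM251 the highest scaled value for 7 of the 10 genes and 15 of the 21. Results that rest on these livers are given with and without them.

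All 10 genes lie on GRCm38, are protein-coding and have the same start and end in GENCODE M21. *Stab1* (ENSMUSG00000042286) spans chromosome 14 from 31139013 to 31168641, *Stab2* (ENSMUSG00000035459) chromosome 10 from 86841198 to 87008025, *Clec4g* (ENSMUSG00000074491) chromosome 8 from 3707064 to 3720651, *Lyve1* (ENSMUSG00000030787) chromosome 7 from 110850607 to 110863239, and *Oit3* (ENSMUSG00000009654) chromosome 10 from 59422958 to 59441778, all on the minus strand. *Fcgr2b* (ENSMUSG00000026656) spans chromosome 1 from 170958617 to 170976547, *Kdr* (ENSMUSG00000062960) chromosome 5 from 75932827 to 75978458, and *Pecam1* (ENSMUSG00000020717) chromosome 11 from 106654217 to 106750628, again on the minus strand. *Vwf* (ENSMUSG00000001930) spans chromosome 6 from 125546774 to 125686679 and *Cd34* (ENSMUSG00000016494) chromosome 1 from 194938819 to 194961279, both on the plus strand. Exons of *Stab2*, *Clec4g*, *Fcgr2b* and *Cd34* are touched by an antisense gene and those of *Stab1* by *Nt5dc2* on the other strand. Whether counting used strand is not given in the sources used here, so reads of such partners may not be told apart. *Fcgr2b* shares a stretch of 512 bases, 14.4% of its longest transcript, with *Fcgr3* at 96.3% identity, and *Cd34* one of 647 bases, 21.1%, with *Gm26684* at 91.0%, so that some of their reads may be split between such pairs.

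RefSeq promoter sequences matched 6 of the 10 genes, and 5 of them hold bases in front of the annotated gene. Those of *Kdr*, *Clec4g* and *Stab1* are shown because the first 2 genes fell in a model and *Stab1* did not. They come from RefSeq on GRCm38.p6, run 5′ to 3′ on the minus strand and end at the base before the gene, with *Kdr* at chr5:75978459-75978705, *Clec4g* at chr8:3720652-3720901 and *Stab1* at chr14:31168642-31168891. Capitals mark matches to 3 motifs searched on both strands, CCGGAA of ETS factors, GATAAG of GATA factors and GGAATG of TEAD factors, which do not overlap here.
Kdr: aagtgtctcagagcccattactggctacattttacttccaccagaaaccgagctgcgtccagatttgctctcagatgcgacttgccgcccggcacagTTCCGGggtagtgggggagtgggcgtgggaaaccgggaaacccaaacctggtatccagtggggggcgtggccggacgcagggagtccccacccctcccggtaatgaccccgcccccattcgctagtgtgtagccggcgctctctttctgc
Clec4g: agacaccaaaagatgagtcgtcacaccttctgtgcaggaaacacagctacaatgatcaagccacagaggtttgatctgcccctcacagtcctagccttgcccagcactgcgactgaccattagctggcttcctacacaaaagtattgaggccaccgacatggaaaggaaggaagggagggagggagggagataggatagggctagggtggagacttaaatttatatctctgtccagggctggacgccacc
Stab1: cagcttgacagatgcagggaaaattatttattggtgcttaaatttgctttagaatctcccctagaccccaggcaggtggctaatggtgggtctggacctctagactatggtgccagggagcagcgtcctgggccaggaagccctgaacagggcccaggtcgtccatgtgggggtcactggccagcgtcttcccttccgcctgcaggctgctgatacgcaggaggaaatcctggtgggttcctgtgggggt
Among the 5 stretches the one match was an ETS match of *Kdr* on the reverse strand, whose first base lies 150 bases before the end of the stretch. Within 250 bases before the start, 12% of 32851 RefSeq promoters held the ETS motif, 6.55% the GATA motif and 12.6% the TEAD motif. G and C made up 61.5% of the *Kdr* stretch, 52.0% of that of *Clec4g* and 57.2% of that of *Stab1*, against a median of 52.4% over all promoters. The match is a description of letters, and no binding was measured.

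On the scaled TPM plus 1, *Oit3* stood at 0.575 times its WT level in YAP1 KO livers and 0.480 times in YKTH livers, *Kdr* at 0.519 and 0.526 times, and *Vwf* at 1.87 and 1.72 times. *Clec4g* fell in YAP1 KO livers and *Lyve1* in YKTH livers. The scavenger receptors *Stab1* and *Stab2* and the junction protein *Pecam1* did not pass the test in either model. In YAP1 KO livers 1 of the 10 genes rose (*Vwf*) and 3 fell (*Oit3*, *Kdr* and *Clec4g*), and in YKTH livers 1 rose (*Vwf*) and 3 fell (*Oit3*, *Kdr* and *Lyve1*). Over all tested genes, 36.7% were called in YAP1 KO livers (18.8% higher and 17.9% lower) and 38.2% in YKTH livers (19.2% higher and 19% lower), so a count of 4 in 10 is close to the background and is not a result about the set. Without scaling 3 rose and 2 fell in YAP1 KO livers and 2 rose and 2 fell in YKTH livers. Without LM74 1 rose and 4 fell in YAP1 KO livers, and in YKTH livers 1 rose and 3 fell without LM225 and 1 rose and 4 fell without LM251, where *Clec4g* and *Fcgr2b* were called and *Lyve1* was not. On the scaled values no overlap of groups was seen for 5 of the 10 genes in YAP1 KO and 6 of 10 in YKTH livers, beside 51.2% and 52.1% of all tested genes. The median log2 fold change of the 10 genes was -0.19 in YAP1 KO and -0.28 in YKTH livers. Without scaling both medians were positive, so their sign hung on the scaling and is not a result about the set. The genes are described one by one below.

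**Figure D1:**
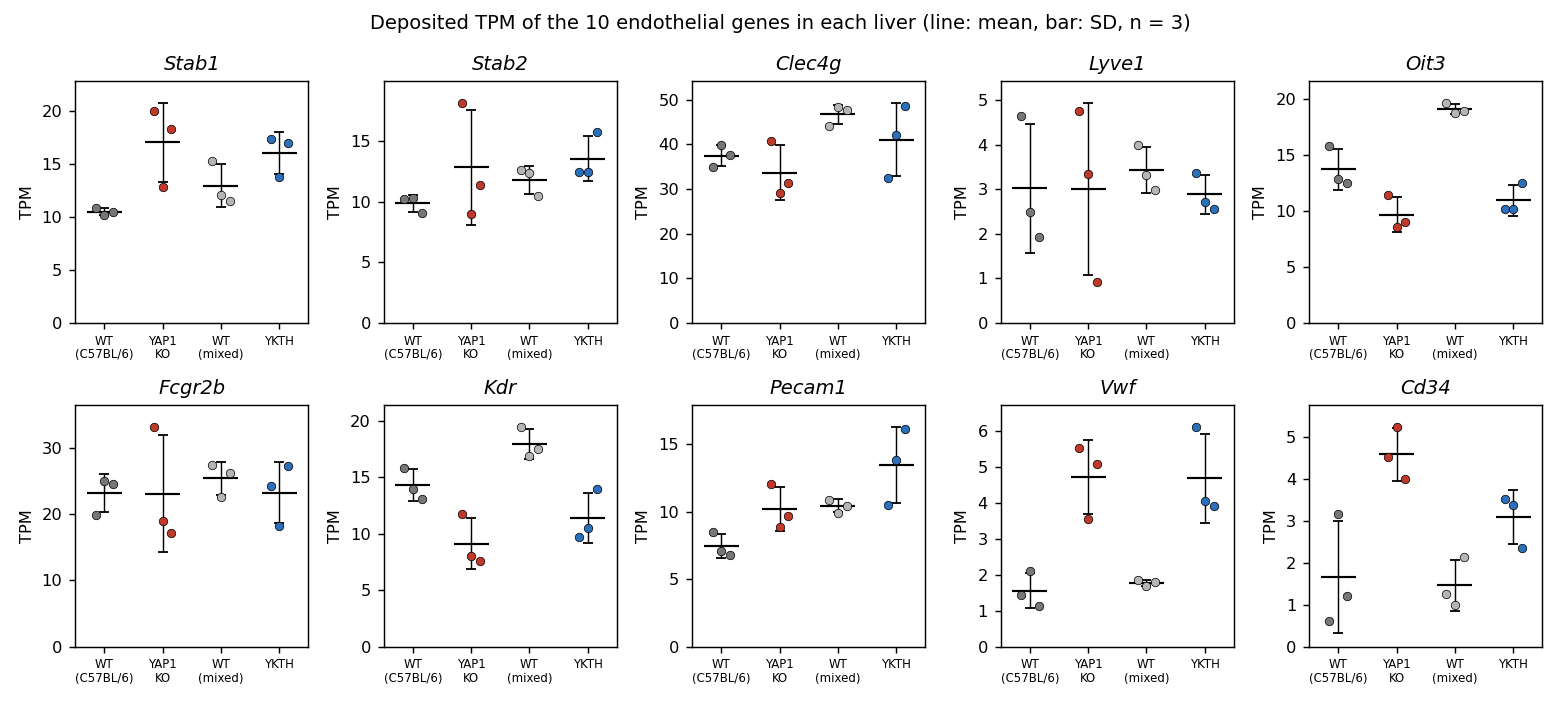
Deposited TPM of the 10 genes (y axis, linear from 0) in each of the 12 livers (points), by group (x axis), with the group mean as a line and the SD as a bar (n = 3). The *Vwf* points of both models (3.56 to 6.13 TPM) lie above all WT points (1.13 to 2.10 TPM), while those of *Oit3* and *Kdr* lie below the points of their own WT group.

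*Kdr* encodes VEGF receptor 2, the main signalling receptor for VEGF-A on endothelium. It was at 15.9, 14.0 and 13.1 TPM in WT (C57BL/6) livers, against 11.8, 8.04 and 7.58 TPM in the YAP1 KO livers. On the mixed background the values were 19.5, 16.9 and 17.5 TPM in WT and 9.72, 10.5 and 13.9 TPM in YKTH livers. Every model liver was below every WT liver of its set, with LM74 of the YAP1 KO group and LM251 of the YKTH group the nearest to the WT range. Its log2 fold change came to -0.95 (95% interval -1.29 to -0.60, limma adjusted p = 0.0021) in YAP1 KO and -0.93 (-1.28 to -0.57, limma adjusted p = 0.00241) in YKTH livers. *Kdr* stayed past the threshold in all 13 alternative fits of each model, with log2 fold changes of -1.07 to -0.62 and -1.09 to -0.63.

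*Oit3*, a secreted zona pellucida domain protein found in sinusoidal endothelium, was at 15.8, 12.8 and 12.5 TPM in WT (C57BL/6) livers, against 11.5, 8.56 and 8.97 TPM in the YAP1 KO livers. It was at 19.6, 18.8 and 18.9 TPM in the WT (mixed C57BL/6-FVB) livers and at 10.2, 10.1 and 12.5 TPM in the YKTH livers. The groups did not overlap in either set, and the gap was wider in the mixed set. On the log2 scale the change was -0.80 (95% interval -1.12 to -0.47, limma adjusted p = 0.00336) in YAP1 KO livers and -1.06 (-1.35 to -0.77, limma adjusted p = 0.000448) in YKTH livers, and it was past the threshold in all 13 alternative fits of each. Over these fits the log2 fold change of *Oit3* ran from -0.86 to -0.47 and from -1.18 to -0.76. It was weakest without scaling, at -0.47 (limma adjusted p = 0.0362) in YAP1 KO and -0.76 (limma adjusted p = 0.00143) in YKTH livers. The difference between the models (YAP1 KO minus YKTH) was 0.25 with an interval of -0.16 to 0.66.

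*Clec4g* encodes the C-type lectin LSECtin and was the most abundant of the 10 genes per length in every group. It was at 35, 39.7 and 37.6 TPM in WT (C57BL/6) and 40.7, 29.0 and 31.3 TPM in YAP1 KO livers. The WT (mixed C57BL/6-FVB) livers held 44.2, 48.3 and 47.6 TPM and the YKTH livers 32.4, 42.1 and 48.7 TPM. On deposited TPM the groups overlapped in both sets, because LM74 of the YAP1 KO group and LM251 of the YKTH group were as high as WT livers. On scaled values they did not overlap, and the log2 fold change was -0.51 in both models, with a limma adjusted p of 0.00823 in YAP1 KO livers (95% interval -0.77 to -0.26) and of 0.0504 in YKTH livers (-0.92 to -0.11). The YAP1 KO call was lost without scaling, where it was -0.16 (limma adjusted p = 0.368), and in YKTH livers 4 of 13 alternative fits passed the threshold, among them that without LM251 (-0.67, limma adjusted p = 0.028).

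*Stab1* and *Stab2* encode stabilin-1 and stabilin-2, large scavenger receptors that clear modified proteins, and *Stab1* is also expressed by tissue macrophages. *Stab1* was at 10.9, 10.2 and 10.4 TPM in WT (C57BL/6) and 19.9, 12.8 and 18.2 TPM in YAP1 KO livers, and at 15.2, 12.1 and 11.5 TPM in WT (mixed C57BL/6-FVB) and 17.4, 13.8 and 17.0 TPM in YKTH livers. All YAP1 KO livers were above all of their WT livers on deposited TPM, with a ratio of mean TPM of 1.62 and a two-sided exact permutation p of 0.1, the smallest that 3 against 3 allow, and the YKTH livers overlapped theirs. On the scaled values the log2 fold change was 0.29 (95% interval -0.05 to 0.63, limma adjusted p = 0.156) in YAP1 KO and -0.01 (-0.30 to 0.28, limma adjusted p = 0.963) in YKTH livers. Without scaling it was 0.63 (limma adjusted p = 0.0158) in YAP1 KO and 0.29 (limma adjusted p = 0.143) in YKTH livers, so that the YAP1 KO call and the YKTH direction hung on the scaling. The YAP1 KO value was 0.44 (limma adjusted p = 0.0336) without LM189.

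*Stab2* was at 10.2, 10.3 and 9.09 TPM in WT (C57BL/6) and 18.2, 9.03 and 11.4 TPM in YAP1 KO livers, and at 12.6, 12.4 and 10.5 TPM in WT (mixed C57BL/6-FVB) and 12.5, 12.5 and 15.7 TPM in YKTH livers. The groups overlapped in both sets, and LM74 held the one high YAP1 KO value. The fitted log2 fold change was -0.03 (95% interval -0.48 to 0.41, limma adjusted p = 0.906) in YAP1 KO and -0.12 (-0.43 to 0.19, limma adjusted p = 0.527) in YKTH livers, and 0.30 and 0.18 without scaling. Without LM74 the YAP1 KO value was -0.24 (limma adjusted p = 0.249). In both models the lower end of the interval from the fit with all livers lies above the log2 fold changes of *Oit3* and *Kdr*.

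*Lyve1*, a hyaluronan receptor of sinusoidal and lymphatic endothelium, was low. It was at 4.65, 2.49 and 1.92 TPM in WT (C57BL/6) and 4.75, 3.34 and 0.92 TPM in YAP1 KO livers, and at 4.00, 3.31 and 2.98 TPM in WT (mixed C57BL/6-FVB) and 3.37, 2.72 and 2.55 TPM in YKTH livers. The YAP1 KO livers spanned a wider range than their WT livers, and the YKTH livers overlapped theirs on deposited TPM and not on scaled values. This gave a log2 fold change of -0.35 (95% interval -1.27 to 0.56, limma adjusted p = 0.52) in YAP1 KO and -0.43 (-0.73 to -0.14, limma adjusted p = 0.0285) in YKTH livers. The YKTH call held in 6 of 12 alternative fits and was lost without LM226 (-0.37), LM227 (-0.44), LM250 (-0.42) or LM251 (-0.39), in 1 fit of all 12 livers and without scaling, with limma adjusted p up to 0.357.

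*Fcgr2b*, the inhibitory Fc gamma receptor that takes up small immune complexes in sinusoidal endothelium and is also expressed by B cells and macrophages, was at 19.9, 25.1 and 24.5 TPM in WT (C57BL/6) and 33.2, 18.9 and 17.1 TPM in YAP1 KO livers. On the mixed background the values were 27.4, 22.6 and 26.3 TPM in WT and 24.3, 18.2 and 27.3 TPM in YKTH livers. The groups overlapped on TPM in both sets, and again LM74 was the one high YAP1 KO liver. The change on the log2 scale was -0.40 (95% interval -0.86 to 0.05, limma adjusted p = 0.146) in YAP1 KO and -0.45 (-0.81 to -0.09, limma adjusted p = 0.0545) in YKTH livers. Without LM74 the YAP1 KO value was -0.63 (limma adjusted p = 0.0125), and without LM251 the YKTH value was -0.60 (limma adjusted p = 0.0229).

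*Pecam1*, which encodes the junction protein CD31, was at 8.49, 7.08 and 6.79 TPM in WT (C57BL/6) and 12, 8.88 and 9.64 TPM in YAP1 KO livers. It was at 10.9, 9.93 and 10.4 TPM in WT (mixed C57BL/6-FVB) and 10.5, 13.8 and 16.1 TPM in YKTH livers. On deposited TPM the YAP1 KO livers lay above their WT livers and the YKTH livers overlapped theirs. The log2 fold change was 0.08 (95% interval -0.24 to 0.39, limma adjusted p = 0.696) in YAP1 KO and 0.03 (-0.37 to 0.42, limma adjusted p = 0.915) in YKTH livers. No alternative fit called it, with limma adjusted p from 0.0625 to 0.954 and from 0.132 to 0.984.

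*Vwf* encodes von Willebrand factor, the platelet-binding protein stored by endothelium of larger vessels and scarce in normal sinusoids. It was at 1.45, 2.10 and 1.13 TPM in WT (C57BL/6) and 5.52, 3.56 and 5.08 TPM in YAP1 KO livers, and at 1.85, 1.68 and 1.79 TPM in WT (mixed C57BL/6-FVB) and 6.13, 4.05 and 3.92 TPM in YKTH livers. All 6 model livers were above all 6 WT livers, and the ratio of mean TPM was 3.02 in YAP1 KO and 2.65 in YKTH livers. The fitted log2 change was 0.90 (95% interval 0.47 to 1.33, limma adjusted p = 0.00685) and 0.78 (0.44 to 1.12, limma adjusted p = 0.00447). *Vwf* was called in all 12 alternative fits of each model that could test it, with log2 fold changes of 0.70 to 1.21 and 0.56 to 1.02, and a minimum of 5 TPM left it out.

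*Cd34*, a sialomucin of continuous capillaries and larger vessels that fibroblasts and progenitor cells also carry, was at 0.612, 3.17 and 1.21 TPM in WT (C57BL/6) and 4.53, 5.25 and 4.00 TPM in YAP1 KO livers. It was at 1.27, 0.984 and 2.15 TPM in WT (mixed C57BL/6-FVB) and 3.53, 3.38 and 2.34 TPM in YKTH livers. Every model liver was above its WT livers on TPM, but LM192 was far above the other WT (C57BL/6) livers, and on scaled values the YKTH groups overlapped. In log2 units the change was 0.94 (95% interval 0.20 to 1.67, limma adjusted p = 0.0516) in YAP1 KO and 0.52 (0.04 to 1.01, limma adjusted p = 0.084) in YKTH livers, and neither passed the threshold. Without scaling both did, at 1.18 (limma adjusted p = 0.0178) in YAP1 KO and 0.74 (limma adjusted p = 0.0211) in YKTH livers. Without LM192 the YAP1 KO value was 1.33 (limma adjusted p = 0.00435). Leaving out LM230 of the WT (mixed C57BL/6-FVB) group gave 0.75 (limma adjusted p = 0.0171) in YKTH livers.

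**Figure D2:**
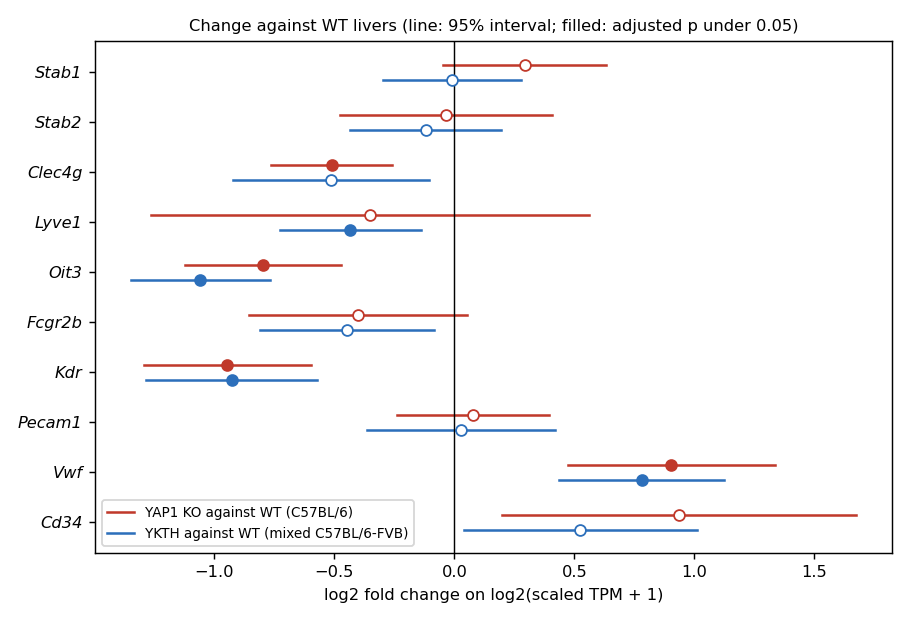
Log2 fold change on log2(scaled TPM + 1) (x axis) of each gene (y axis) in YAP1 KO (red) and YKTH (blue) livers against their own WT livers, with 95% intervals as lines and filled points where the limma adjusted p was under 0.05 (n = 3 per group). *Kdr* and *Oit3* lie between -1.06 and -0.80 and *Vwf* at 0.78 and 0.90, while *Stab1*, *Stab2* and *Pecam1* span 0.

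The models were compared with each other as the difference of their changes, YAP1 KO minus YKTH. None of the 10 genes passed the threshold (limma adjusted p of 0.999 for each, 0 with an unadjusted p under 0.05), beside 0.0576% of all tested genes. The largest differences were 0.41 for *Cd34* (95% interval -0.51 to 1.33), 0.29 for *Stab1* (-0.13 to 0.71) and 0.25 for *Oit3* (-0.16 to 0.66). For *Kdr* the difference was -0.03 (-0.52 to 0.46) and for *Vwf* 0.12 (-0.40 to 0.65). Intervals of this width do not show the models to be alike. Between the WT groups, 9 of the 10 genes had a positive log2 fold change (mixed C57BL/6-FVB minus C57BL/6), and 0 passed the threshold, beside 0.216% of all tested genes. *Oit3* (0.40), *Pecam1* (0.38) and *Clec4g* (0.25) had an unadjusted p under 0.05 there, with limma adjusted p of 0.644, 0.658 and 0.841. The WT groups come from separate tables, which the total of 1000000 TPM per library makes comparable only up to that total.

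Per length, the order of the 10 genes differed between WT and model livers. In both WT groups *Clec4g* was first (37.5 ± 2.37 TPM in WT (C57BL/6) and 46.7 ± 2.18 TPM in WT (mixed C57BL/6-FVB), SD, n = 3) and *Fcgr2b* followed, *Kdr* and *Oit3* took ranks 3 and 4 with overlapping values, and then came *Stab1*, *Stab2* and *Pecam1*. *Lyve1* followed, and *Cd34* and *Vwf* were last with overlapping values. In both model groups *Stab1* held rank 3 (17.0 ± 3.71 TPM in YAP1 KO and 16.0 ± 1.98 TPM in YKTH livers, SD, n = 3) and *Stab2* rank 4, ahead of *Pecam1*, *Oit3* and *Kdr*, and *Lyve1* was last, below *Vwf* and *Cd34*. In the model livers the values of neighbours from *Stab1* to the lower of *Oit3* and *Kdr* overlapped, as did those of *Cd34* and *Lyve1*. In YAP1 KO livers those of *Clec4g* and *Fcgr2b*, of *Fcgr2b* and *Stab1*, and of *Vwf* and *Cd34* overlapped too. Where values overlapped, the order is one of means.

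Ratios between 2 genes of the same liver do not depend on the scaling. *Kdr* TPM over *Pecam1* TPM was 1.87, 1.97 and 1.93 in WT (C57BL/6) livers and 0.977, 0.905 and 0.786 in YAP1 KO livers. On the mixed background this ratio was 1.79, 1.70 and 1.67 in WT and 0.925, 0.759 and 0.865 in YKTH livers. All 6 WT livers thus held more *Kdr* than *Pecam1* per length and all 6 model livers less, LM74 included, and the mean log2 ratio was lower by 1.12 and 1.02. *Oit3* over *Pecam1* behaved alike, at 1.80 to 1.89 in the 6 WT livers and 0.734 to 0.969 in the 6 model livers. *Oit3* over *Stab1*, which compares 2 sinusoidal genes, was 1.19 to 1.65 in WT and 0.492 to 0.738 in model livers. *Stab2* over *Stab1* overlapped, at 0.830 to 1.02 in WT and 0.624 to 0.927 in model livers. No test was run on the ratios. Blood cells also express *Pecam1*, and their part in the ratios over *Pecam1* was not tested.

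*Vwf* was also set against the other genes of the same liver. *Vwf* TPM over *Kdr* TPM was 0.0912, 0.151 and 0.0865 in WT (C57BL/6) and 0.470, 0.443 and 0.670 in YAP1 KO livers. On the mixed background this ratio was 0.0948, 0.0995 and 0.103 in WT and 0.630, 0.386 and 0.281 in YKTH livers. The lowest model liver was above the highest WT liver, and the geometric means differed 4.90-fold in YAP1 KO and 4.14-fold in YKTH livers. LM225 (0.630) was the highest YKTH liver and raised that fold. Against *Pecam1* alone the YKTH livers (0.243 to 0.583) lay above their WT livers (0.170 to 0.172) and the YAP1 KO livers (0.401 to 0.527) above theirs (0.167 to 0.297). Set against the mean log2 level of the 21 pan-endothelial genes, *Kdr* (-0.69 and -0.70), *Oit3* (-0.54 and -0.83) and *Clec4g* (-0.23 and -0.27) were lower and *Vwf* (1.09 and 0.95) higher without overlap in YAP1 KO and YKTH livers. The other members overlapped in at least 1 of the sets by that measure. LM225 raised the YKTH mean of *Vwf*, at 0.054 on the log2 scale beside -0.81 in LM250 and -0.96 in LM251. The WT (mixed C57BL/6-FVB) livers were at -1.56 to -1.50.

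**Figure D3:**
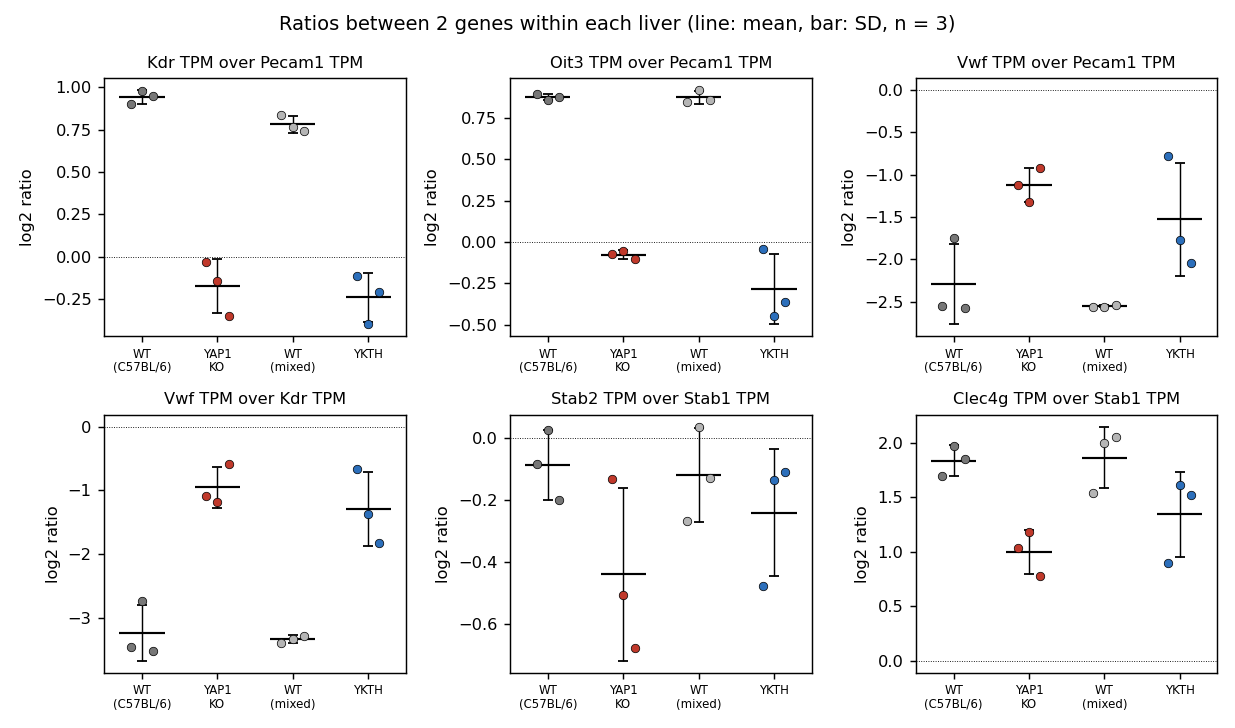
Log2 of the TPM ratio of 2 genes within each liver (y axis) for 6 pairs, by group (x axis), with points for the 12 livers, the mean as a line and the SD as a bar (n = 3). *Kdr* over *Pecam1* and *Oit3* over *Pecam1* are above 0 in all 6 WT livers and below 0 in all 6 model livers, and *Stab2* over *Stab1* overlaps.

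The 9 other sinusoidal genes held members that fell beside *Kdr* and *Oit3*. Of them 2 fell and 0 rose in YAP1 KO livers and 4 fell and 1 rose in YKTH livers, with list medians of -0.34 and -0.38 on the log2 scale beside -0.04 over all tested genes in each model. Over all tested genes 18.8% rose and 17.9% fell in YAP1 KO, and 19.2% rose and 19% fell in YKTH livers. The counts of each list here and below stand beside these shares. Without scaling 2 fell and 1 rose in YAP1 KO and 1 fell and 2 rose in YKTH livers, with list medians of -0.023 and -0.13. With 1 liver left out in turn 2 to 3 fell in each model, and 2 in YKTH livers without LM227. The YKTH count of 4 thus held with no liver left out. These counts are not a result about the list. *Dnase1l3*, a secreted DNase, was at 22.5, 21.7 and 18.1 TPM in WT (C57BL/6) and 17.3, 14.1 and 11.3 TPM in YAP1 KO livers. It was at 29.8, 25.6 and 26.1 TPM in WT (mixed C57BL/6-FVB) and 13.7, 16.1 and 24.4 TPM in YKTH livers. The groups did not overlap in either set, with log2 fold changes of -0.87 (limma adjusted p = 0.0029) and -0.91 (limma adjusted p = 0.0103). *Ehd3*, a membrane-trafficking protein, fell by 0.81 (limma adjusted p = 0.0022) and by 0.72 (limma adjusted p = 0.0171) on the log2 scale, the YKTH call being lost without scaling (-0.41) and without LM227 (-0.64, limma adjusted p = 0.058). *Clec1b*, the receptor CLEC-2 that Kupffer cells and platelets also carry, rose in YKTH livers by 0.91 (limma adjusted p = 0.00251) and was at 0.50 (limma adjusted p = 0.0821) in YAP1 KO livers.

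The 21 pan-endothelial genes had medians of -0.30 and -0.25. Without scaling the medians were 0.0010 in YAP1 KO and 0.065 in YKTH livers, so their sign hung on the scaling. In YAP1 KO livers 4 fell and 0 rose and in YKTH livers 5 fell and 2 rose, but without scaling 0 fell in either model, and 1 rose in YAP1 KO and 2 in YKTH livers. Over all tested genes 17.9% fell in YAP1 KO and 19% in YKTH livers. The counts that fell are close to these shares and are not a result about the list. Without LM74 6 fell in YAP1 KO livers, and without LM189, LM191 or LM193 1 fell, without LM75 or LM192 2. In YKTH livers 2 to 6 fell with 1 liver left out in turn, 3 of them without LM225, LM226 or LM250 and 2 without LM227. In that model 0 rose without LM227, LM250 or LM251. *Cdh5*, which encodes VE-cadherin of endothelial junctions, was at 10.9, 10.3 and 9.05 TPM in WT (C57BL/6) and 22, 15.2 and 14.0 TPM in YAP1 KO livers. On the mixed background the values were 14.6, 10.1 and 12.3 TPM in WT and 19.9, 26.9 and 27.6 TPM in YKTH livers. The model livers were above their WT livers in both sets, with log2 fold changes of 0.35 (limma adjusted p = 0.106) in YAP1 KO and 0.65 (limma adjusted p = 0.021) in YKTH livers, a call kept by 10 of 13 alternative fits and lost without LM227 (0.54), LM250 (0.57) or LM251 (0.54). *Tek* (-0.29 and -0.12) and *Tie1* (0.13 and -0.07), the angiopoietin receptor and its partner, did not pass the test in either model. *Erg*, an ETS factor of endothelium, was at -0.33 (limma adjusted p = 0.334) in YAP1 KO livers and fell in YKTH livers by 0.63 (limma adjusted p = 0.00896). *S1pr1*, the sphingosine 1-phosphate receptor, fell in both models, by 0.50 (limma adjusted p = 0.0129) and 0.74 (limma adjusted p = 0.00992). The calls of *Erg* and *S1pr1* were lost without scaling and in no other alternative fit. *Cldn5* of tight junctions (-0.65, limma adjusted p = 0.0292) and *Myct1* (-0.51, limma adjusted p = 0.0484) fell in YAP1 KO livers and kept their calls in 6 of 13 and 3 of 12 alternative fits, and in YKTH livers they were at -0.75 (limma adjusted p = 0.111) and -0.49 (limma adjusted p = 0.0628). Both lost the YAP1 KO call without scaling, *Cldn5* also without LM189, LM191, LM192 or LM193 (-0.70 to -0.48), and *Myct1* also without each liver but LM74 (-0.59 to -0.40). *Fli1*, another ETS factor that blood cells also express, kept its rise in YKTH livers (0.70, limma adjusted p = 0.0299) in 7 of 12 and lost it without LM227, LM250 or LM251 (0.54 to 0.60), and was at 0.29 (limma adjusted p = 0.387) in YAP1 KO livers. The summed TPM of the 21 genes ran from 157 to 182 in WT (C57BL/6), 156 to 225 in YAP1 KO, 188 to 225 in WT (mixed C57BL/6-FVB) and 173 to 241 in YKTH livers, and overlapped in both sets.

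Of 10 genes listed as angiocrine, among them ligands that endothelium can send to its neighbours, 2 rose and 1 fell in YAP1 KO livers. In YKTH livers 4 rose and 2 fell. The medians were -0.04 in YAP1 KO and 0.22 in YKTH livers. Over all tested genes 36.7% were called in YAP1 KO and 38.2% in YKTH livers. Without scaling 4 rose and 0 fell in YAP1 KO and 5 rose and 0 fell in YKTH livers. Without LM74 2 fell in YAP1 KO livers, and without any 1 liver of its fit 1 fell in YKTH livers. *Bmp6* and *Bmp2*, both made by sinusoidal endothelium and needed for hepcidin expression in hepatocytes, went opposite ways. *Bmp6* was at 3.15, 2.26 and 2.13 TPM in WT (C57BL/6) and 18.6, 14.8 and 24.5 TPM in YAP1 KO livers, and at 3.87, 2.90 and 2.80 TPM in WT (mixed C57BL/6-FVB) and 12.3, 23.7 and 18.8 TPM in YKTH livers. *Bmp2* was at 12.2, 10.6 and 9.05 TPM and 9.94, 5.84 and 6.14 TPM in the first set and at 15, 12.5 and 13.2 TPM and 9.82, 11.3 and 11.5 TPM in the second. Every model liver was above every WT liver in *Bmp6*, and the *Bmp2* groups overlapped in the first set through LM74 and not in the second. *Bmp6* rose by 2.21 (limma adjusted p = 0.000151) and 1.89 (limma adjusted p = 0.000533) on the log2 scale, and *Bmp2* fell by 0.83 (limma adjusted p = 0.00852) and 0.59 (limma adjusted p = 0.00605), both *Bmp2* calls being lost without scaling (limma adjusted p of 0.0746 and 0.0906). Both *Bmp2* calls held whenever 1 liver was left out, LM74 included. *Bmp6* TPM over *Bmp2* TPM, which needs no scaling, was 0.213 to 0.259 in the 6 WT livers and 1.26 to 3.98 in the 6 model livers. *Thbd*, the thrombin-binding anticoagulant thrombomodulin, was at 2.28 to 3.39 TPM in the WT and 7.69 to 15.5 TPM in the model livers and rose by 1.38 (limma adjusted p = 0.00177) and 1.46 (limma adjusted p = 0.0016). *Efnb2*, an ephrin of arterial endothelium, fell in YKTH livers by 0.44 (limma adjusted p = 0.0467), lost that call without scaling and whenever 1 liver was left out, and was at -0.28 (limma adjusted p = 0.187) in YAP1 KO livers.

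**Figure D4:**
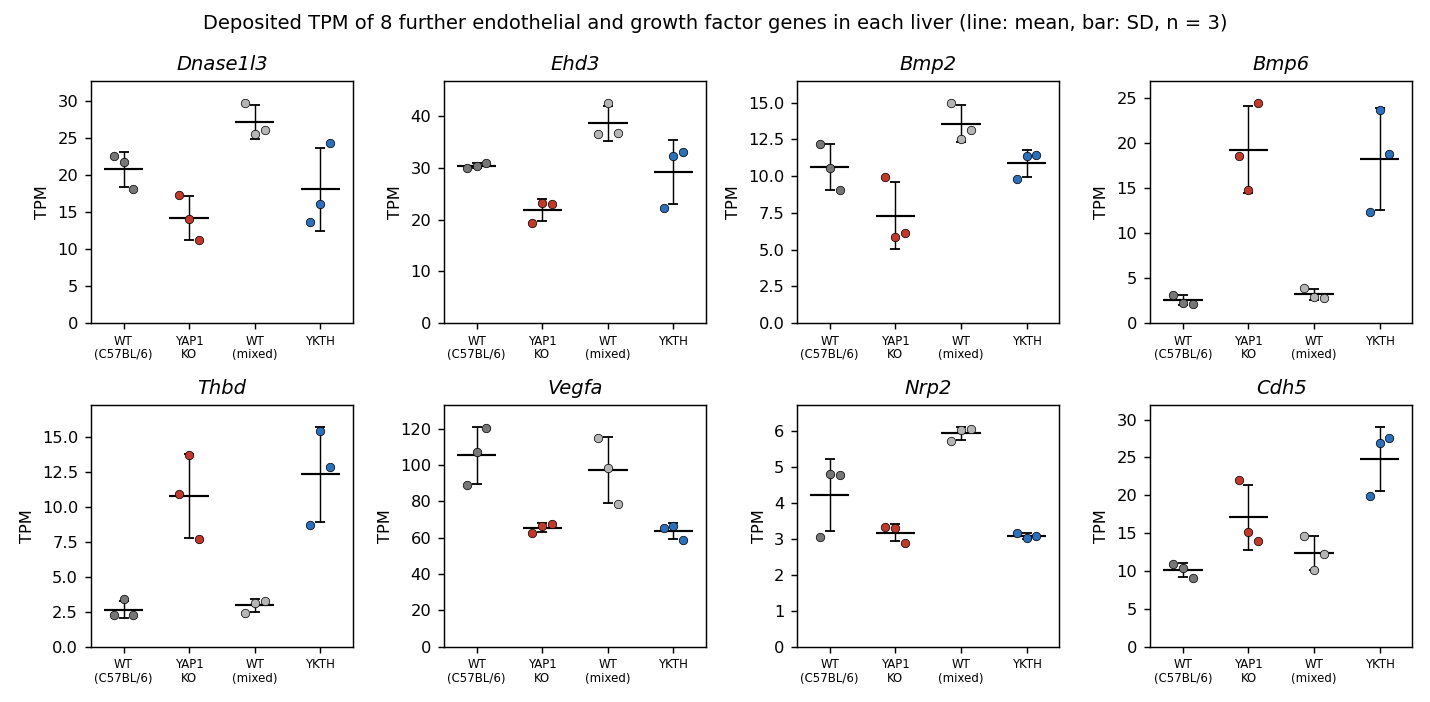
Deposited TPM (y axis, linear from 0) of 8 further genes in each of the 12 livers (points), by group (x axis), with the group mean as a line and the SD as a bar (n = 3). *Bmp6* and *Thbd* of all model livers lie above all WT livers, *Vegfa* of all model livers (58.7 to 67.3 TPM) lies below all WT livers (78.5 to 120 TPM), and *Dnase1l3* and *Ehd3* lie below their own WT groups.

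Of the 18 genes of capillarization, large vessels and endothelial activation, 11 passed the filter in the YAP1 KO fit and 12 in the YKTH fit, and 6 rose and 1 fell in YAP1 KO and 5 rose and 1 fell in YKTH livers. Without scaling 7 rose in each, and over the livers left out in turn 4 to 6 did. *Cd9*, a tetraspanin that many epithelial and blood cells carry, rose by 3.26 (limma adjusted p = 5.66e-06) and 3.28 (limma adjusted p = 0.000109) on the log2 scale, and *Lrg1*, which hepatocytes also secrete as an acute phase protein, by 2.13 (limma adjusted p = 4.88e-05) and 2.43 (limma adjusted p = 4.91e-05). Neither is specific to endothelium, and at 1567 to 2312 TPM in the model livers *Lrg1* was far above every endothelial gene here. *Ltbp4*, a matrix protein that binds latent TGF-beta, fell by 0.71 (limma adjusted p = 0.00493, lost without scaling) and 1.14 (limma adjusted p = 0.000655). *Sema3g*, *Bmx*, *Sele* and *Aplnr* were under 1 TPM in every liver, with a highest value of 0.852 TPM.

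Of 6 basement membrane genes, 5 rose in YAP1 KO livers and 3 rose and 1 fell in YKTH livers. Without scaling 5 rose and 0 fell in each model. *Nid1*, the linker nidogen-1, was at 4.11 to 5.47 TPM in WT (C57BL/6) and 64.9 to 74.2 TPM in YAP1 KO livers, and at 4.56 to 6.32 TPM in WT (mixed C57BL/6-FVB) and 49.0 to 64.8 TPM in YKTH livers, a log2 fold change of 3.30 (limma adjusted p = 2.56e-06) and 2.97 (limma adjusted p = 9.31e-06). *Col4a1*, a chain of type IV collagen, rose by 2.24 (limma adjusted p = 5.92e-05) and 1.89 (limma adjusted p = 1.02e-05). *Lama4*, the laminin chain made by endothelium, was at -0.14 (limma adjusted p = 0.58) in YAP1 KO livers and fell in YKTH livers by 0.56 (limma adjusted p = 0.0468), a call that 4 of 12 alternative fits kept and that was lost without LM225, LM226, LM227, LM250 or LM251 (-0.67 to -0.42). Without LM74, LM189, LM192 or LM193 3 of the 6 genes rose in YAP1 KO livers.

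*Vegfa*, the gene of the main ligand of the *Kdr* product, was lower in both models, as were the co-receptor genes *Nrp1* and *Nrp2*. Of the 11 VEGF and angiopoietin genes, 7 were tested in YAP1 KO and 6 in YKTH livers, and 3 fell and 0 rose in each, with list medians of -0.06 and -0.51 and with 1 lower without LM191 in YAP1 KO livers. Without scaling 1 fell and 2 rose in YAP1 KO and 2 fell and 2 rose in YKTH livers. *Vegfa*, which hepatocytes make in quantity, was at 89.1, 107 and 120 TPM in WT (C57BL/6) and 62.6, 66.3 and 67.3 TPM in YAP1 KO livers. It was at 115, 98.5 and 78.5 TPM in WT (mixed C57BL/6-FVB) and 65.5, 66.6 and 58.7 TPM in YKTH livers. No model liver reached any WT liver, and *Vegfa* fell by 1.03 (limma adjusted p = 0.000652) and 0.91 (limma adjusted p = 0.000942), calls that held in all 13 alternative fits of each model. The co-receptor *Nrp2* fell in YKTH livers by 1.02 (limma adjusted p = 0.000358, called in all 13 alternative fits) and in YAP1 KO livers by 0.58 (limma adjusted p = 0.0245), which 7 of 12 alternative fits kept and which was lost without scaling and without LM74, LM191, LM192 or LM193 (-0.56 to -0.50). *Nrp1* fell by 0.68 (limma adjusted p = 0.0156) and 0.78 (limma adjusted p = 0.00307), both calls being lost without scaling and the first also without LM191 (-0.61). The genes that rose without scaling were the ligands *Vegfb* (0.54, limma adjusted p = 0.0309, and 0.41, limma adjusted p = 0.0238) and *Vegfc* (0.64, limma adjusted p = 0.0131, and 0.41, limma adjusted p = 0.0455), both named after their values were seen. Their deposited TPM were higher in every model liver than in the WT livers of its set. On the scaled values *Vegfb* was at 0.20 (limma adjusted p = 0.366) and 0.10 (limma adjusted p = 0.601) and *Vegfc* at 0.37 (limma adjusted p = 0.102) and 0.19 (limma adjusted p = 0.309). *Pgf*, *Angpt1* and *Apln* were under 1 TPM in every liver.

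**Figure D5:**
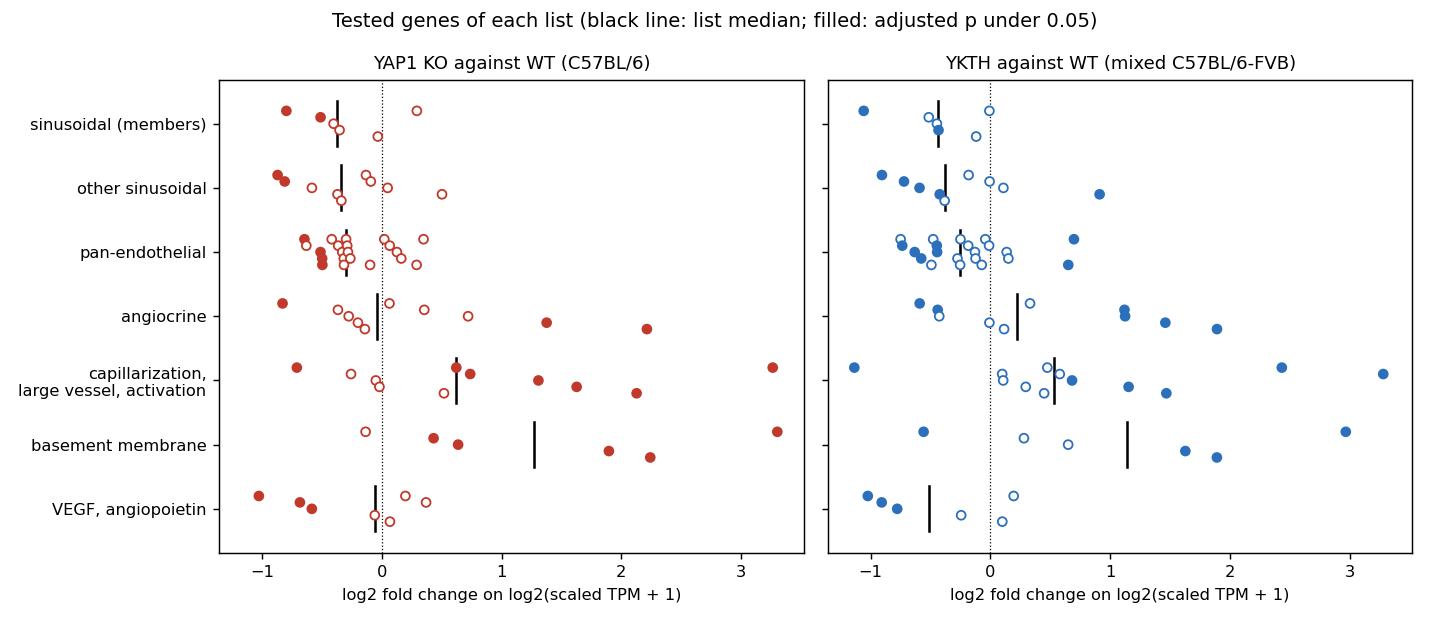
Log2 fold change on log2(scaled TPM + 1) (x axis) of the tested genes of 7 lists (y axis), in YAP1 KO livers (left) and YKTH livers (right) against their own WT livers, with a black line at each list's median and filled points where the limma adjusted p was under 0.05. Medians of the sinusoidal and pan-endothelial lists lie between -0.44 and -0.25, and those of the basement membrane list at 1.27 and 1.14. Without scaling, not drawn here, the pan-endothelial medians were 0.0010 (YAP1 KO) and 0.065 (YKTH).

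Other cell types that can carry some of these genes were measured in the same libraries. Their counts stand beside 18.8% of all tested genes that rose in YAP1 KO and 19.2% in YKTH livers. Of 12 macrophage markers 10 rose and 1 fell in each model, and their summed TPM ran from 417 to 537 in WT (C57BL/6), 1126 to 1608 in YAP1 KO, 363 to 741 in WT (mixed C57BL/6-FVB) and 1619 to 1720 in YKTH livers. *Marco* (2.71, limma adjusted p = 8.56e-06, and 2.84, limma adjusted p = 0.000492) and *Cd68* (1.54, limma adjusted p = 0.000388, and 1.73, limma adjusted p = 0.000513) rose, and *Cd163* fell (-1.58, limma adjusted p = 0.000747, and -0.92, limma adjusted p = 0.0251, the YKTH call being kept by 7 of 13 alternative fits and lost without scaling, at -0.66, with no filter on low values and without LM226, LM230, LM250 or LM251, at -0.93 to -0.72). None of these markers was at 0 in all livers. *Stab1*, *Fcgr2b* and *Clec1b* are also expressed by macrophages, and *Pecam1* by several kinds of blood cell. The part of those cells in their values was not tested. Of 12 stellate cell and fibroblast genes 6 rose and 1 fell in YAP1 KO and 6 rose in YKTH livers, with summed TPM of 146 to 171, 395 to 527, 131 to 162 and 341 to 445 in the same order of groups. *Col1a1* (4.02, limma adjusted p = 2.26e-05, and 3.11, limma adjusted p = 0.000385), *Col3a1* (2.62, limma adjusted p = 5.17e-05, and 2.13, limma adjusted p = 0.000136) and *Lum* (2.41, limma adjusted p = 1.49e-05, and 2.18, limma adjusted p = 7.47e-05) rose in both models, and *Lrat*, which quiescent stellate cells use to store retinoid, fell in YAP1 KO livers by 0.84 (limma adjusted p = 0.00992) and was at -0.47 (limma adjusted p = 0.384) in YKTH livers. The *Lrat* call was lost without scaling (-0.53, limma adjusted p = 0.0595) and with all 12 livers in 1 fit (limma adjusted p = 0.0714). Without scaling 8 rose and 0 fell in YAP1 KO and 7 rose in YKTH livers, and without LM225 9 of the 12 genes rose in YKTH livers. Their part in the values of *Cd34*, *Nid1* and *Col4a1*, which such cells can express, was not tested.

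Platelets and megakaryocytes also hold von Willebrand factor. Of 7 of their genes, *Gp1ba*, *Gp1bb*, *Gp9* and *Gp5* were under 1 TPM in every liver, and 3 were tested in YAP1 KO and 2 in YKTH livers. *Pf4*, platelet factor 4, rose in YAP1 KO livers by 1.21 (limma adjusted p = 0.0145, 0.0512 without LM193) and was at 0.46 (limma adjusted p = 0.15) in YKTH livers, where it was called without scaling (0.70, limma adjusted p = 0.0405). *Itga2b* fell in YKTH livers by 0.59 (limma adjusted p = 0.0469), a call lost without scaling and whenever 1 liver was left out, and was at -0.26 (limma adjusted p = 0.319) in YAP1 KO livers. The summed TPM of the 7 genes was 3.32 to 7.27 in WT (C57BL/6) and 9.0 to 16.1 in YAP1 KO livers and overlapped in the mixed set (4.91 to 6.35 in WT and 5.64 to 6.47 in YKTH livers). The part of these cells in the *Vwf* values was not tested. Of 6 B cell genes 2 were tested in each model and 0 were called, with 1 at an unadjusted p under 0.05 in YAP1 KO livers and 0 in YKTH livers, and their summed TPM overlapped in both sets. Of 4 lymphatic genes 2 were tested, 0 called in YAP1 KO livers (0 at an unadjusted p under 0.05) and 1 lower in YKTH livers, namely *Prox1*, which hepatocytes also express, named here after its values were seen (-0.70, limma adjusted p = 0.0487, beside -0.43, limma adjusted p = 0.268, in YAP1 KO livers), a call lost without scaling and without each liver but LM225. *Pdpn* and *Mmrn1* were under 1 TPM in every liver.

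Hepatocyte and biliary genes were measured as well. Over all tested genes 18.8% rose and 17.9% fell in YAP1 KO, and 19.2% rose and 19% fell in YKTH livers. Of 5 hepatocyte genes 2 fell in YAP1 KO and 1 in YKTH livers, *Ttr*, which encodes transthyretin, by 1.13 (limma adjusted p = 0.000398) and 0.93 (limma adjusted p = 0.00491), and *Alb*, albumin, by 0.74 (limma adjusted p = 0.0151) in YAP1 KO livers, a call kept by 9 of 13 alternative fits and lost without scaling (-0.38), with quantile normalization, with no filter on low values and without LM193 (-0.71). *Alb* was at -0.62 (limma adjusted p = 0.0857) in YKTH livers. The other hepatocyte genes, *Apoa1*, *Hnf4a* and *Cps1*, were not called in either model. The counts are thus not a result about the hepatocyte list. *Alb* took the largest TPM of the listed genes, between 51588 and 83138. Of the 4 tested biliary genes *Sox9* (2.10, limma adjusted p = 0.000128, and 1.69, limma adjusted p = 0.0013) and *Spp1* (3.04, limma adjusted p = 0.000325, and 1.33, limma adjusted p = 0.0071) rose in both models, and *Epcam*, which could be tested in 9 alternative fits, fell in YKTH livers by 1.48 (limma adjusted p = 0.00118) and was at -0.35 (limma adjusted p = 0.441) in YAP1 KO livers. *Krt19*, the remaining tested biliary gene, was not called in either model. The part of such shifts in the share of RNA in the endothelial values was not tested.

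Over all 12 livers, some genes outside the set followed a member closely. Likeness was measured as the mean absolute difference, over the 12 livers, between log2 levels centred on each gene's own mean, among 12159 genes, and it says nothing of shared control. *Dnase1l3* was nearest to *Kdr* (0.0729, beside an SD of 0.54 of *Kdr* itself) and to *Oit3* (0.122, SD 0.53), and *Bmp2* was second to *Kdr* (0.132). *Gpihbp1*, which holds lipoprotein lipase on capillary endothelium, was nearest to *Clec4g* (0.0727, SD 0.35), and *Tm4sf1*, another gene of endothelium, was nearest to *Lyve1* (0.189, SD 0.46). The nearest to *Oit3* after *Dnase1l3* was *Serpinb8* (0.132) and to *Clec4g* after *Gpihbp1* was *Ctnnbip1* (0.0975). For *Stab1* these were *Exoc6* (0.0852) and *Cep135* (0.0907), for *Stab2* *Cbx5* (0.0989) and *Wdr41* (0.10), and for *Lyve1* after *Tm4sf1* *Zcchc17* (0.193). *Fcgr2b* was nearest to *Zfp799* (0.113) and *Tspan7* (0.114), and *Pecam1* to *Fam43a* (0.105) and *Atp8b5* (0.111). *Vwf* was nearest to *Rpap3* (0.0988) and *Sirpb1c* (0.106), and *Cd34* to *Ssc5d* (0.185) and *Rundc3a* (0.195). Where a member varied little over the livers, as *Stab1* did (SD 0.18), a small distance says less.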

How the data were processed

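RNA of 12 whole livers was sequenced by the authors on a NovaSeq with paired reads and quantified in CLC Genomics Workbench against GRCm38. The deposited values are TPM per gene, which the authors computed within each library and placed in a table for each model and its WT livers. Each library sums to 1000000 TPM. The study's methods state a read number per sample, but the depth of each single library is not known from the TPM. No counting interval can therefore be given. The tables also hold the authors' own comparison columns (fold changes and p-values from trimmed mean normalization with edgeR), which were not used. The strand of counting is not given in the sources used here.

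TPM were scaled by a trimmed mean of log ratios (30% of ratios and 5% of levels trimmed), and log2(scaled TPM + 1) was fitted with limma 3.58.1 (R 4.3.3, eBayes with trend) over the genes that reached 1 TPM in 3 or more livers of the fit, that is 11704 genes for YAP1 KO, 11741 for YKTH, 11126 for the WT groups and 12159 for the difference between the models. Tests were two-sided, with Benjamini-Hochberg adjustment over all tested genes and a threshold of 0.05. The study's methods give 3 mice per group, so each liver was taken as 1 mouse and p-values measure the spread between mice. A single gene of 3 against 3 livers cannot go below p = 0.1 in an exact permutation test. The procedure was tested on simulated data, where of 200 genes changed by 1 on the log2 scale 71.5% were recovered in the YAP1 KO design, 69% in the YKTH design, 67% between the WT groups and 59.5% for the difference between the models. In the same order 4, 6, 4 and 10 unchanged genes were called. In the real data 36.7% of tested genes were called in YAP1 KO and 38.2% in YKTH livers. The shares recovered therefore do not give the power in those livers.

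The 10 genes and the lists (other sinusoidal, pan-endothelial, angiocrine, capillarization and vessel, basement membrane, VEGF and angiopoietin, lymphatic, macrophage, stellate and fibroblast, platelet, B cell, hepatocyte and biliary genes) were chosen with earlier results of these data known. Lists are described by counts and medians with no set test. From each list and model at most the 2 highest and 2 lowest log2 fold changes are named, among called genes with no overlap of groups on scaled values, with *Cdh5*, *Tek*, *Tie1* and *Erg* always named and, for each of the 10 genes, the 2 genes most like it. *Prox1*, *Vegfb* and *Vegfc* were named after their values were seen, as were genes under 1 TPM in every liver. A gene named for 1 model is given for both. Positions come from GENCODE M21 on GRCm38, which held 99.8% of the deposited identifiers, near copies were searched with blastn 2.17.0, and promoters come from RefSeq.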

Additional observations from a re-analysis of the deposited data

How the results depend on the processing

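Alternatives were no scaling, quantile normalization, a pseudocount of 0.1, a minimum of 5 TPM or none, robust shrinkage, all 12 livers in 1 fit, and each liver left out in turn. No paired analysis was possible because the labels do not say which mice shared a litter, and the fits ignore any such pairing. Single genes were followed for the 10 genes, *Cdh5*, *Tek*, *Tie1*, *Erg* and the genes named by the rule above. Of 856 alternative values of their 67 calls, 771 kept direction and call, 85 in 23 calls lost the call and 0 turned direction. Because that rule takes called genes with large changes from these same data, these shares do not give the stability of calls in general. The number of the 10 genes that rose in YAP1 KO livers (1) was 0 with a minimum of 5 TPM, which leaves out *Vwf*, *Cd34* and *Lyve1*, 3 without scaling, 2 with all 12 livers in 1 fit, and 1 to 2 with a liver left out (2 without LM189 or LM192). In YKTH livers the number that rose (1) was 0 with a minimum of 5 TPM, 2 without scaling and 1 to 2 with a liver left out (2 without LM230), and the number that fell (3) was 5 with robust shrinkage. The lower count of pan-endothelial genes, 4 in YAP1 KO and 5 in YKTH livers, was 0 in both without scaling.

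The values that changed sign were not called in either direction in the main analysis. Without scaling they were *Stab2* (0.30), *Lama4* (0.071) and *Tek* (0.0010) in YAP1 KO livers, *Stab1* (0.29), *Stab2* (0.18), *Tek* (0.15) and *Tie1* (0.21) in YKTH livers, and *Clec4g* (0.038) and *Kdr* (0.012) in the difference between the models. With quantile normalization they were *Stab1* (0.018) in YKTH livers and *Pecam1* (-0.016) in the difference. With a liver left out, the log2 fold change in YAP1 KO livers ran from -0.24 to 0.14 for *Stab2*, -0.62 to 0.072 for *Lyve1* and -0.048 to 0.29 for *Tie1*. In YKTH livers it ran from -0.080 to 0.076 for *Stab1*, -0.13 to 0.21 for *Pecam1*, -0.76 to 0.069 for *Lrat*, -0.24 to 0.066 for *Tek* and -0.19 to 0.12 for *Tie1*. Between the WT groups it ran from -0.060 to 0.44 for *Lyve1*, -0.010 to 0.14 for *Fcgr2b*, -0.026 to 0.23 for *Vwf* and -0.35 to 0.32 for *Cd34*. For the difference it ran from -0.13 to 0.25 for *Stab2*, -0.20 to 0.15 for *Clec4g*, -0.20 to 0.50 for *Lyve1*, -0.19 to 0.19 for *Fcgr2b*, -0.16 to 0.14 for *Kdr*, -0.15 to 0.19 for *Pecam1* and -0.0074 to 0.26 for *Vwf*. The causes were not tested. With 3 livers a group and no depth in the files, changes of low genes such as *Lyve1*, *Cd34* and *Vwf* are the least certain.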
